A study of Drosophila melanogaster with 31 samples.

Results

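The comparison is of wing imaginal discs bearing clones mutant for capicua (cic), with the Hippo pathway kinase gene warts (wts) intact, against wing discs bearing control clones, on day 5 of larval development in Drosophila melanogaster. Its members were chosen by label: the 3 cic and the 3 control libraries of day 5, out of 18 RNA-seq libraries in a series of 31 samples, whose other 13 samples were not analysed here. Every gene of the deposited count table entered, and 9004 of its 17373 genes had enough counts to be tested. All larvae carried y w, the recombinase transgene ubxflp and an FRT82B chromosome with a Minute mutation, M(3), and the fluorescent marker ubiGFP. Opposite that chromosome, cic larvae carried FRT82B with the allele cicQ474X, whose name denotes a premature stop codon, and control larvae carried FRT82B alone. Recombination at FRT sites yields patches homozygous for the unmarked chromosome arm beside slower-growing Minute cells, so each library was a mosaic, and the sources used here do not give the share of mutant cells. Discs were dissected by hand from 12 to 35 third-instar larvae kept at 25 degrees and pooled for each library. The labels do not say whether the 3 pools of a group were raised separately, and the tests therefore weigh differences against the spread of these pools, which may be technical. In whole-disc RNA, fewer cells making a transcript and less RNA per cell cannot be told apart.

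Capicua is a repressor with an HMG-box DNA-binding domain, conserved from flies to humans. Signalling from the EGF receptor through Ras to the kinase ERK leads to phosphorylation of Capicua and relieves its targets from repression. In the wing disc this branch of the pathway is known for its roles in vein formation and in growth. Losing Capicua is therefore a way to release such targets without activating the receptor, and the title of the series asks how Hippo signalling alters the response.

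The 6 libraries held 18063124 to 22263073 counts. Wing disc identity genes were measured throughout: vestigial (vg) at 215 to 265 CPM (read counts scaled to a common library total), nubbin (nub) at 247 to 378 CPM and apterous (ap) at 434 to 542 CPM, while the eye gene ey did not exceed 1.08 CPM. Markers of other discs were also present: the haltere and leg gene Ubx stood at 16.1 to 70.4 CPM, eya, of the eye disc, at 12.3 to 25 CPM, and Scr, of labial and prothoracic discs, at 1.42 to 7.55 CPM. The first principal component of these libraries carried 37.7% of the variance and did not separate cic from control. RNA of other tissues varied within groups. The 11 salivary gland markers summed to 4.61, 20.5 and 3.71 CPM in cic libraries 1, 2 and 3, against 3.68, 277 and 6841 CPM in control libraries 1, 2 and 3, with none at 0 in all 6. The 14 hemocyte markers summed to between 129.6 and 237 CPM in cic discs and between 206 and 328 CPM in control discs, and the 19 differentiated muscle markers, of which Act79B and fln were at 0 in all 6 libraries, to between 1193 and 1618 CPM in cic discs and between 1490.3 and 2429 CPM in control discs. The roX RNAs of dosage compensation, which are made in males, summed to 289, 117 and 423 CPM in cic discs, against 237, 432 and 605 CPM in control discs. With their level as a covariate, 92 genes were called in place of the 147 reported below, 81 of them shared.

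The transcript of cic itself (release 6, 3R 20252770 to 20303942) stood at 578, 396 and 426 CPM in cic discs, against 569, 658 and 533 CPM in control discs. Cic library 1 lay within the control range, and the difference of -0.33 ± 0.12 (log2 fold change ± standard error; adjusted p = 0.25, from edgeR's quasi-likelihood test after Benjamini-Hochberg correction over all tested genes, as throughout) did not pass. Without cic library 1 it was -0.51 and passed (adjusted p = 0.01). A transcript with a premature stop is still counted, so this level does not identify the genotype. The wts transcript, intact here, measured 109, 99 and 109.9 CPM in cic discs, against 99.3, 106 and 95 CPM in control discs, with overlapping groups.

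At an adjusted p under 0.05, 147 of the 9004 genes were called, or 1.63%. Of these, 86 were higher in cic discs (0.955% of the tested genes) and 61 were lower (0.677%). Of the 147, 64 had a log2 fold change of at least 1 in size, 40 higher and 24 lower, and the median was 0.95 among the rises and -0.78 among the falls. The 3 cic libraries lay wholly above or below the 3 control libraries for 137 of the called genes. Across all genes tested, 523 (5.81%) lay wholly above and 577 (6.41%) wholly below. In fits that lacked each of the 6 libraries in turn, 49 genes kept their call every time, 33 of them higher and 16 lower in cic discs. The count was 61 without cic library 2 and 71 without control library 2. The fit behind the 147 calls estimated the spread of each gene from all 18 libraries, and with the 6 compared libraries alone the count was 19. Where a gene described below lost its call in any of the 6 fits, the number of fits that kept it and the highest adjusted p stand beside it. A total of 14 alternative analyses was made, these 6 fits and 8 others.

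**Figure D1:**
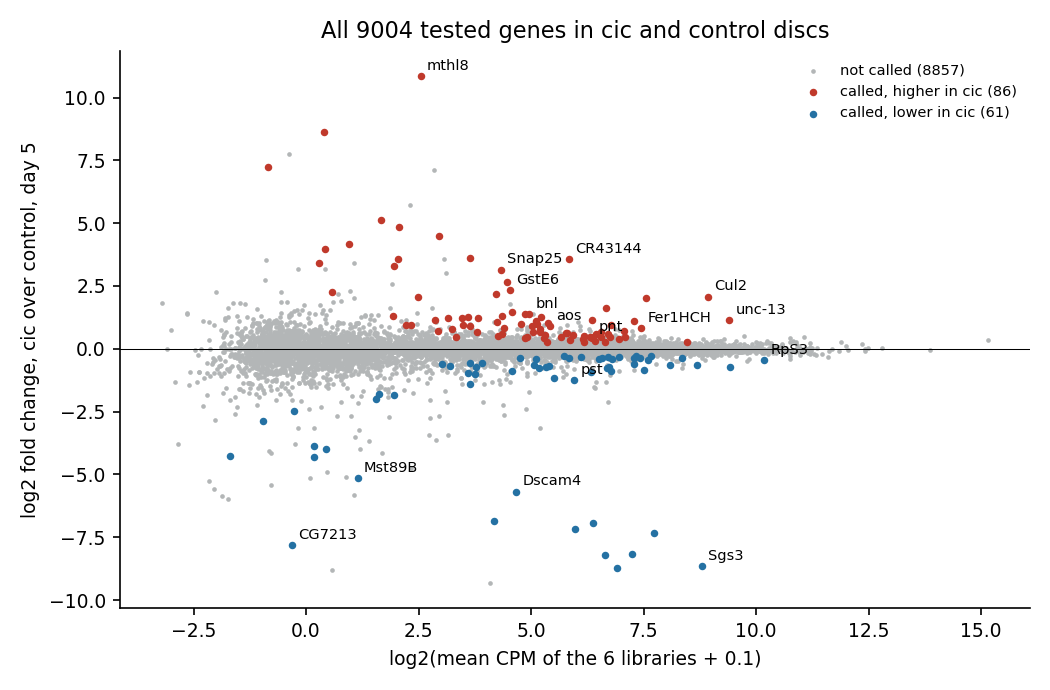
Each point is a tested gene, with the log2 of its mean CPM over the 6 libraries plus 0.1 on the x axis and its fitted log2 fold change of cic over control on the y axis. Red points are the 86 genes called higher and blue points the 61 called lower, and most red and blue points lie within a few log2 units of 0; the fitted values of genes at 0 counts in a group, such as mthl8 and CG7213, depend on a prior count.

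Of the genes that Ras/EGFR signalling or the loss of Capicua is known to induce, the EGFR antagonist argos and the ETS activator pointed rose in cic discs. Argos (aos, 3L 16470386 to 16483650), a secreted protein that sequesters EGFR ligand, measured 59.9, 43.9 and 63.1 CPM in cic discs, against 29.8, 32.1 and 27.1 CPM in control discs. The lowest cic library stood above the highest control library. The rise was 0.91 ± 0.11 (adjusted p = 0.00045), and it kept its call in all 6 fits that lacked a library. Pointed (pnt, 3R 23290231 to 23346167), a transcription factor that ERK activates, measured 96.4, 79.4 and 112 CPM in cic discs, against 68.8, 72.6 and 67 CPM in control discs. The groups again did not overlap, but cic library 2 came within a few CPM of the highest control. Its rise was 0.46 ± 0.11 (adjusted p = 0.037) and was kept in 1 of the 6 fits (adjusted p up to 0.16, without cic library 3).

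The list of Ras/EGFR and Capicua target genes held 21 genes, of which 17 were tested, 2 rose and 0 fell, beside 0.955% and 0.677% of all tested genes. Its median log2 fold change was 0.19, against -0.0035 over all tested genes. In it 4 members lay wholly above their controls against 1 wholly below, beside 5.81% and 6.41% of all tested genes. The ERK phosphatase gene Mkp3 measured 74.4, 72.5 and 86.4 CPM in cic discs, against 68.8, 51.1 and 65.1 CPM in control discs, without overlap, and its difference was 0.34 ± 0.12 (adjusted p = 0.27). Sprouty (sty), an inhibitor of receptor tyrosine kinases, measured 143, 136 and 198 CPM in cic discs, against 129, 139.5 and 136 CPM in control discs. Cic library 2 lay within the control range, and the difference was 0.24 ± 0.14 (adjusted p = 0.59). The ETS regulator gene edl was at 0.20 ± 0.10 (adjusted p = 0.51). Vein (vn), which encodes an EGFR ligand of the neuregulin type, measured 75.8, 73.2 and 73.2 CPM in cic discs, against 88.2, 90.9 and 80 CPM in control discs. Each cic library lay below every control. Its difference of -0.22 ± 0.06 did not pass (adjusted p = 0.12), although it did in DESeq2 (-0.23, adjusted p = 0.042). The remaining members, rho, kek1, stg, CycE, Ets21C, mirr, Socs36E, ImpL2, Doc1, Doc2 and Doc3, lay between -0.26 and 0.41, and tll, hkb, ind and zen had too few counts to be tested.

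The pathway above these genes showed no call. None of the 20 genes of the cascade from Ras to ERK passed, with differences from -0.13 to 0.17. None of the 9 genes for EGFR ligands, their processing and the receptor passed, with differences from -0.22 to 0.23. Of all tested genes 1.63% were called, a share at which lists of this size hold few calls or none. Among 7 tested ETS factors and regulators, pnt was the single call, beside 1.63% of all tested genes.

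**Figure D2:**
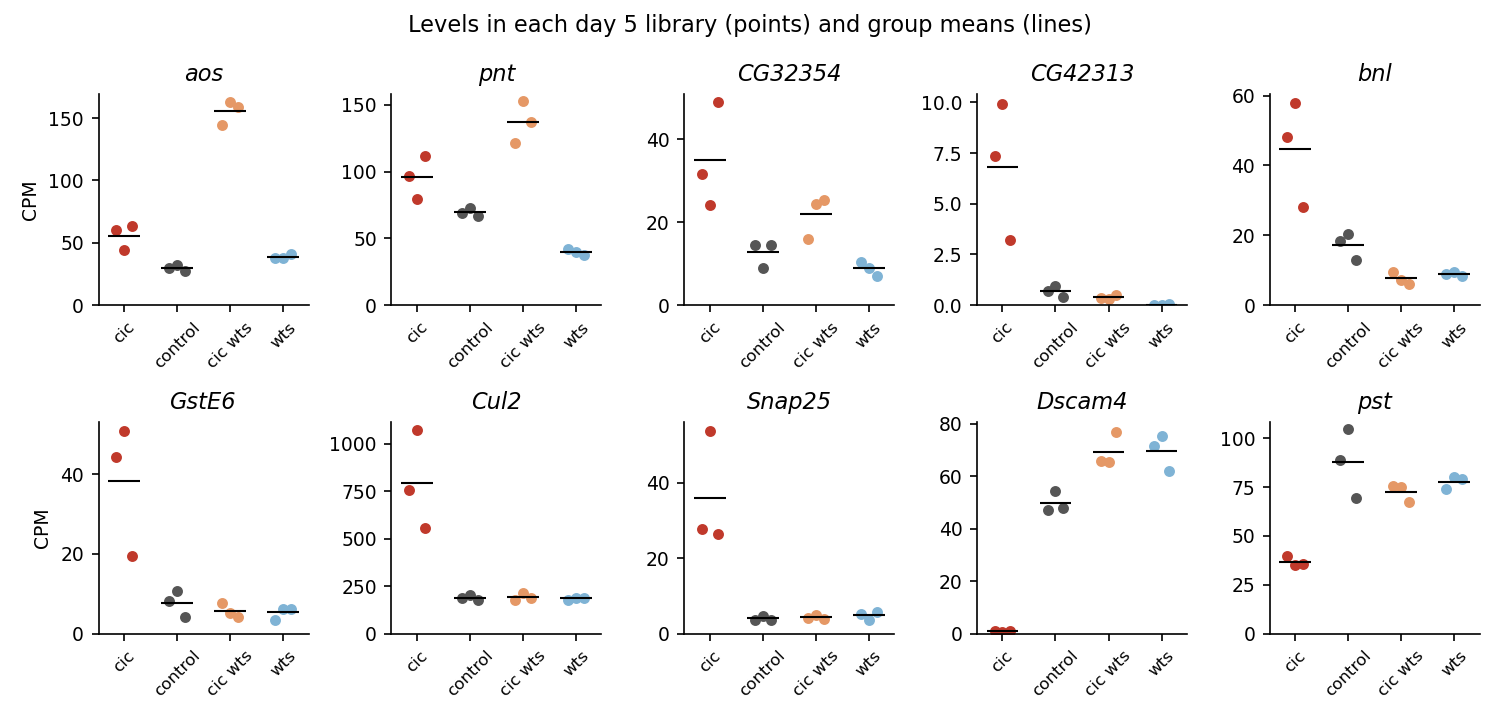
CPM of 10 genes in each day 5 library (points) with the group mean (line), for cic, control, cic wts and wts discs; each y axis starts at 0. Levels of aos and pnt in cic discs lie between those of control and cic wts discs, and CG32354 is higher with cic lost in either background. CG42313 is too, but from a wts group near 0, and its cic wts mean (0.381 CPM) lies below its control mean (0.685 CPM). For bnl, GstE6, Cul2, Snap25, Dscam4 and pst the cic discs stand apart from the 3 other groups.

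The FGF ligand gene branchless (bnl, 3R 19794073 to 19836817), whose product guides tracheal branches through the receptor Breathless, rose in cic discs. It measured 48.2, 58 and 28.2 CPM in cic discs, against 18.5, 20.3 and 12.9 CPM in control discs. The lowest cic library was above the highest control library. The rise was 1.38 ± 0.25 (adjusted p = 0.0095), and it missed the threshold without cic library 2 (1.15, adjusted p = 0.062). The other 10 FGF and tracheal response genes did not pass, beside 1.63% of all tested genes called. The receptor gene btl was at -0.12 ± 0.14 (adjusted p = 0.83), and pyr, a ligand of the other FGF receptor, at -0.13 ± 0.12 (adjusted p = 0.76). Tracheal markers summed to between 3136 and 3643 CPM in cic discs and between 3505 and 3979 CPM in control discs. Of the 13 tested, 2 were called, in the lower direction, beside 0.677% of all tested genes called lower. Their part in the bnl result was not tested.

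Several glutathione S-transferase genes, whose products detoxify electrophiles, rose in cic discs. Of 27 tested, 4 were called, all higher, beside 1.63% of all tested genes called in either direction. The list median was 0.15, with differences from -0.86 to 3.41. Of the 27, 5 lay wholly above and 3 wholly below their controls, beside 5.81% and 6.41% of all tested genes. GstE6 measured 44.4, 50.8 and 19.5 CPM in cic discs, against 8.11, 10.6 and 4.13 CPM in control discs, and its rise of 2.32 ± 0.38 (adjusted p = 0.0041) kept its call in all 6 fits. GstD3 measured 42.3, 52.8 and 18.6 CPM in cic discs, against 2.19, 3.95 and 12.1 CPM in control discs, a rise of 2.65 ± 0.49 (adjusted p = 0.011) that was kept in 4 of 6 fits (adjusted p up to 0.071, without control library 2). In both genes cic library 3 was the lowest of its group but stayed above every control. GstE1 rose by 1.12 ± 0.26 (adjusted p = 0.043), with cic library 3 inside the control range and its call kept in 1 of 6 fits (adjusted p up to 0.14, without control library 3), and GstT1 by 0.47 ± 0.10 (adjusted p = 0.026; 3 of 6 fits, adjusted p up to 0.14, without control library 2). The low-count GstE2 measured 5.74, 3.95 and 1.3 CPM in cic discs, against 0.233, 0.711 and 0.053 CPM in control discs and did not pass (adjusted p = 0.085). Members of the GstD and GstE clusters are close paralogs, and reads may have been split between them.

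In 2 other families of detoxifying enzymes, listed after values were seen, 2 genes each rose, beside 0.955% of all tested genes called higher. Of 39 cytochrome P450 genes, 4 lay wholly above and 3 wholly below their controls. Of 7 UDP-glycosyltransferase genes, 4 lay wholly above and 1 wholly below, beside 5.81% and 6.41% of all tested genes. Among 39 tested cytochrome P450 genes, Cyp6d2 rose by 2.08 ± 0.32 (adjusted p = 0.003), from library values of 7.39, 13.7 and 5.52 CPM in cic discs, against 1.54, 2.84 and 1.91 CPM in control discs, and Cyp6a14 by 1.24 ± 0.24 (adjusted p = 0.014; 3 of 6 fits, adjusted p up to 0.085, without cic library 2). The median of the list was -0.16. Of 7 tested UDP-glycosyltransferase genes, Ugt86Di rose by 1.13 ± 0.20 (adjusted p = 0.008; 4 of 6 fits, adjusted p up to 0.055, without control library 2) and its neighbour Ugt86Da by 0.48 ± 0.11 (adjusted p = 0.048; 1 of 6 fits, adjusted p up to 0.19, without control library 1).

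The transcription factor gene CG6272, named Irbp18 in RefSeq, encodes the partner of Xrp1, the factor that drives the stress response of Minute cells. It measured 33.9, 48.4 and 26.6 CPM in cic discs, against 19.5, 18.3 and 17.2 CPM in control discs. All cic libraries lay above all controls, and the rise of 0.99 ± 0.17 (adjusted p = 0.0057) kept its call in all 6 fits. Xrp1 itself measured 1247, 1029.9 and 698 CPM in cic discs, against 674, 902 and 529 CPM in control discs, with overlapping groups, and did not pass (0.50 ± 0.19, adjusted p = 0.32). Of 18 tested genes of this response 3 were called, all higher, beside 1.63% of all tested genes called in either direction. They were CG6272 and the glutathione S-transferase genes GstE6 and GstE1 described above. The list median was 0.46, and 3 members lay wholly above and 2 wholly below their controls, beside 5.81% and 6.41% of all tested genes. The translation repressor gene Thor measured 11.4, 6.39 and 3.71 CPM in cic discs, against 17.3, 14.2 and 71.7 CPM in control discs; the groups did not overlap, and the difference did not pass (-2.25 ± 0.56, adjusted p = 0.056). Its high control value is in library 3, the library with the most salivary gland RNA. Both groups contained Minute cells, in shares that the sources used here do not give.

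Of 14 genes that assemble iron-sulfur clusters, 4 rose in cic discs and 0 fell, beside 0.955% and 0.677% of all tested genes. The list was added after values were seen, so its counts are no test of the family. CG12264, the cysteine desulfurase Nfs1, measured 63.1, 79.2 and 54.6 CPM in cic discs, against 48.1, 42.4 and 38.4 CPM in control discs, a rise of 0.61 ± 0.12 (adjusted p = 0.012; 3 of 6 fits, adjusted p up to 0.056, without control library 2). CG9836, the scaffold protein IscU, measured 66.7, 89.2 and 61.6 CPM in cic discs, against 50.1, 53 and 46.4 CPM in control discs, a rise of 0.54 ± 0.12 (adjusted p = 0.03; 2 of 6 fits, adjusted p up to 0.14, without cic library 2). In both, every cic library stood above every control, and cic library 2 was the highest. The cytosolic scaffold pair CG17904 (Nubp1) and CG4858 (Nubp2) rose by 0.44 ± 0.10 (adjusted p = 0.036; 2 of 6 fits, adjusted p up to 0.19, without cic library 2) and 0.44 ± 0.10 (adjusted p = 0.039; 1 of 6 fits, adjusted p up to 0.21, without cic library 2). CIAPIN1, which passes electrons to the cytosolic machinery, was at 0.41 ± 0.10 without overlap and did not pass (adjusted p = 0.053). Altogether 7 of the 14 lay wholly above their controls and 1 wholly below, beside 5.81% and 6.41% of all tested genes, and the median was 0.21. The ferritin heavy chain gene Fer1HCH, which stores iron, measured 240.4, 225 and 202 CPM in cic discs, against 136, 128 and 116 CPM in control discs. The libraries agreed closely within each group, and the rise of 0.81 ± 0.08 (adjusted p = 5.6e-05) was called in all 14 alternative analyses.

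Genes of DNA end joining and damage repair included 3 rises among 29 tested, beside 0.955% of all tested genes called higher. The list was again added after values were seen and had a median of 0.06. The gene mus308, for DNA polymerase theta of microhomology-mediated joining, measured 95.4, 84.5 and 72.2 CPM in cic discs, against 56.2, 57.9 and 64.9 CPM in control discs and rose by 0.49 ± 0.09 (adjusted p = 0.013; 3 of 6 fits, adjusted p up to 0.064, without control library 2). Ku80, of the heterodimer that binds broken ends, measured 45.2, 53.3 and 36.5 CPM in cic discs, against 33.2, 27.9 and 24.3 CPM in control discs and rose by 0.66 ± 0.15 (adjusted p = 0.032; 2 of 6 fits, adjusted p up to 0.17, without cic library 2). Neither gene overlapped between groups. The Ku70 gene, listed as Irbp, was at 0.63 ± 0.19 and did not pass (adjusted p = 0.15). Cic library 3, at 25.1 CPM, lay within its control range, and without that library it passed (0.86, adjusted p = 0.0038). The alkyltransferase gene agt rose by 0.94 ± 0.20 (adjusted p = 0.024; 3 of 6 fits, adjusted p up to 0.15, without cic library 2), and mre11 was at 0.42 ± 0.11 (adjusted p = 0.065). Gadd45, a stress-induced gene upstream of JNK and p38 kinases, measured 43, 48.5 and 35.9 CPM in cic discs, against 23.1, 24.8 and 19.8 CPM in control discs and rose by 0.91 ± 0.20 (adjusted p = 0.033; 1 of 6 fits, adjusted p up to 0.17, without cic library 2). It was the single call among 14 genes of the JNK pathway, beside 1.63% of all tested genes.

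Among 15 tested cell death genes, an initiator caspase and an inhibitor of apoptosis rose, beside 0.955% of all tested genes called higher. The initiator caspase gene Dronc measured 98.4, 126 and 121 CPM in cic discs, against 73.4, 61 and 86 CPM in control discs and rose by 0.65 ± 0.12 (adjusted p = 0.008), a call lost without cic library 2 (adjusted p = 0.054). The inhibitor of apoptosis gene Diap1, also a target of Yorkie, measured 378, 380.1 and 409 CPM in cic discs, against 340.5, 303 and 322 CPM in control discs and rose by 0.27 ± 0.06 (adjusted p = 0.043; 1 of 6 fits, adjusted p up to 0.24, without control library 2). The cell death inducer hid was at 0.43 ± 0.19 with overlapping groups (adjusted p = 0.41). The other 13 did not pass.

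Of 44 tested cell cycle genes 1 was called, beside 1.63% of all tested genes. The mitotic cyclin gene CycB3 measured 115, 105 and 108 CPM in cic discs, against 133, 146 and 130.3 CPM in control discs, and its fall of 0.32 ± 0.05 (adjusted p = 0.0041) held in all 6 fits. Of the 44 genes, 0 lay wholly above and 8 wholly below their controls, beside 5.81% and 6.41% of all tested genes, and the median was -0.07. Outside the list, and chosen after their values were seen, the spindle pole gene asp fell by 0.29 ± 0.07 (adjusted p = 0.035; 2 of 6 fits, adjusted p up to 0.19, without control library 2), and pbl, a RhoGEF required for cytokinesis, by 0.28 ± 0.07 (adjusted p = 0.048; 2 of 6 fits, adjusted p up to 0.21, without control library 1). The chromatin remodelling gene polybromo measured 163, 144 and 143 CPM in cic discs, against 195, 195 and 186 CPM in control discs and fell by 0.36 ± 0.06 (adjusted p = 0.0078), held in all 6 fits. Sdhaf3, an assembly factor of succinate dehydrogenase, fell by 0.68 ± 0.11 (adjusted p = 0.003), although its reads may be shared with an overlapping gene. Of 86 tested ribosomal protein genes 1 was called, beside 1.63% of all tested genes, and the median was -0.05. In this list 0 lay wholly above and 7 wholly below their controls, beside 5.81% and 6.41% of all tested genes. The call was RpS3, at 896, 896 and 1149 CPM in cic discs, against 1352, 1417 and 1252 CPM in control discs. It fell by 0.45 ± 0.10 (adjusted p = 0.033) and was kept in 2 of 6 fits (adjusted p up to 0.18, without cic library 2). The labels do not say which gene the M(3) mutation affects.

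**Figure D3:**
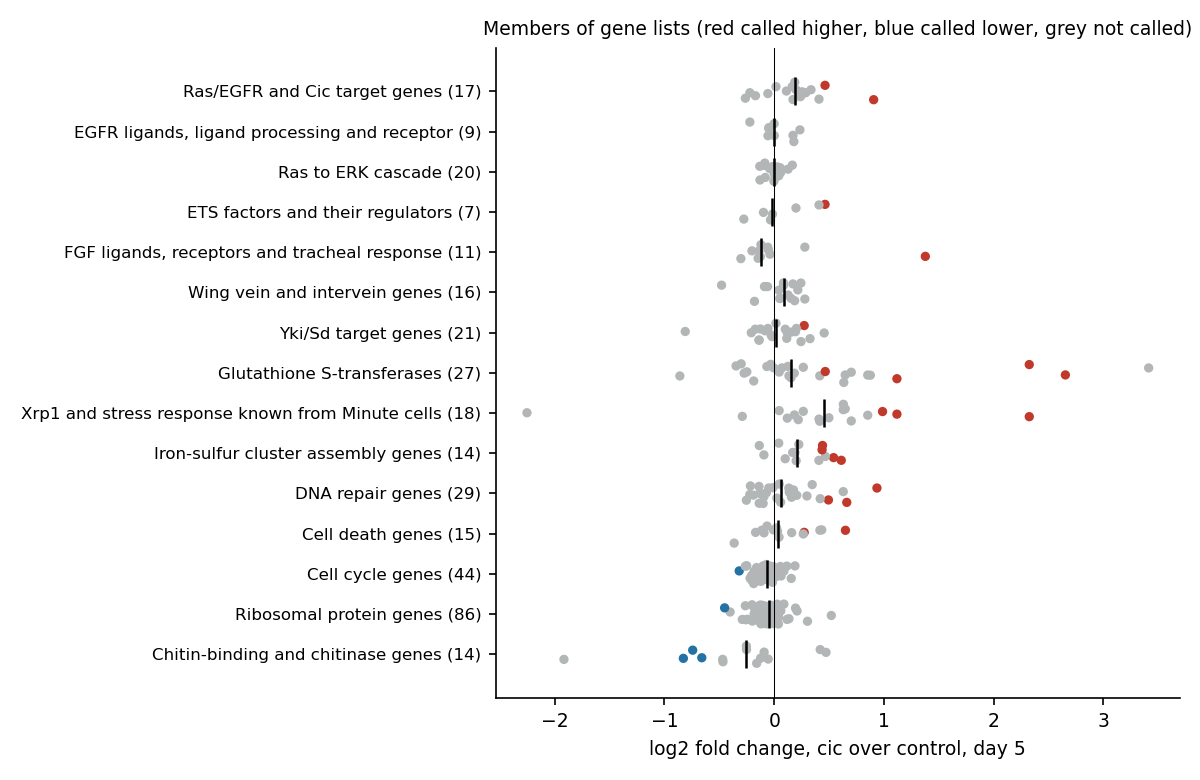
Log2 fold changes of cic over control (x axis) for the tested members of 15 gene lists (rows, with the number tested), where red points are called higher, blue points called lower, grey points not called, and the black bar is the list median. Most members lie near 0, with red points at aos and pnt, bnl, the glutathione S-transferases and the iron-sulfur genes, and blue points at CycB3, RpS3 and the chitin genes.

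The developmental pathways of the disc showed few calls. Of 22 Hippo pathway components, 22 Notch, 21 Wnt, 18 Dpp, 14 Hedgehog and 12 JAK/STAT genes tested, 0 passed in edgeR. Across all tested genes the share was 1.63%, at which lists of this size hold few calls or none. The 21 targets of Yorkie and Scalloped had Diap1 as their single call, beside 1.63% of all tested genes, and a median of 0.02. The JAK/STAT ligand gene os, one of those targets, measured 12.5, 13 and 16.5 CPM in cic discs, against 11.1, 11.1 and 11.3 CPM in control discs; it lay above the controls in each cic library but did not pass (0.33 ± 0.12, adjusted p = 0.27). None of the 21 wing selector and notum genes and none of the 16 vein and intervein genes passed, beside 1.63% of all tested genes. Their medians were -0.04 and 0.08.

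A pair of neighbouring genes on 2L rose. The noncoding gene CR43144 (2L 21657625 to 21658249) measured 95.2, 149 and 72.4 CPM in cic discs, against 10.3, 8.66 and 7.79 CPM in control discs, and the cullin gene Cul2 (2L 21658735 to 21663698), whose product is a scaffold of ubiquitin ligases, measured 754, 1069.9 and 556 CPM in cic discs, against 186, 201 and 178 CPM in control discs. The lowest cic value was several times the highest control value for CR43144, and far above it for Cul2. CR43144 rose by 3.56 ± 0.20 (adjusted p = 4.6e-08) and Cul2 by 2.08 ± 0.16 (adjusted p = 3.3e-06), and both calls were kept in all 14 alternatives. Their spans do not overlap, but their starts lie 1110 bases apart. The sources used here do not say whether strand was used in counting, so reads between the pair may have gone to either gene.

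Genes of synaptic vesicle fusion had 2 rises among 18 tested, beside 0.955% of all tested genes called higher. Snap25 (3L 24074180 to 24299205), a SNARE protein, measured 27.6, 53.5 and 26.3 CPM in cic discs, against 3.68, 4.66 and 3.71 CPM in control discs. Every cic library was far above the controls, and the rise of 3.15 ± 0.28 (adjusted p = 1.5e-05) was kept in all 14 alternatives. The priming factor gene unc-13, on chromosome 4, measured 974, 1033 and 783 CPM in cic discs, against 396, 455 and 416 CPM in control discs and rose by 1.14 ± 0.14 (adjusted p = 0.00047), likewise in all 14. The 12 tested neuron and glia markers had 0 calls in edgeR, beside 1.63% of all tested genes. Neuron and glia markers summed to between 382 and 419.5 CPM in cic discs and between 393 and 446.5 CPM in control discs. Further rises held in all 6 fits included those of RhoGAP68F, a GTPase activator (1.64, adjusted p = 3.2e-05), at 153 ± 47.9 CPM in cic discs and 49 ± 4.32 CPM in control discs, of sick (1.12, adjusted p = 0.0014), at 215 ± 43.1 CPM in cic discs and 98.9 ± 16 CPM in control discs, and of the histone acetyltransferase gene Gcn5 (0.48, adjusted p = 0.0063), at 109 ± 13.3 CPM in cic discs and 77.8 ± 2.03 CPM in control discs (mean ± SD, n = 3 each).

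Called in cic discs were 3 genes with 0 counts in every control library. The Methuselah-like receptor gene mthl8 (3L 22428 to 26308) measured 11, 5.77 and 17.7 CPM in cic discs and 0 counts in all controls. Against a floor of 3 counts over the control group it was at least 236-fold higher (adjusted p = 0.0084), and it also had 0 counts in all 12 libraries of wts and cic wts discs, at days 5 and 9. CG31459 was at least 51.6-fold higher (adjusted p = 0.022; 3 of 6 fits, adjusted p up to 0.12, without cic library 2), and the Runx factor gene RunxB at least 19.7-fold higher (adjusted p = 0.037; 1 of 6 fits, adjusted p up to 0.14, without cic library 2), from library values of 0.706, 1.64 and 0.401 CPM. In the other direction, CG7213 (3L 8231814 to 8240601) had 0 counts in the 3 cic libraries and 1.02, 1.6 and 1.59 CPM in control discs, at least 29.7-fold lower (adjusted p = 4.1e-06). The floor covers counting error alone.

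CG7213 overlaps the cell adhesion gene Dscam4 (3L 8238647 to 8282398), the gene with the smallest p. Dscam4, a homophilic surface receptor of the Dscam family, measured 1.13, 0.622 and 1.15 CPM in cic discs, against 47.2, 54.5 and 47.8 CPM in control discs. The highest cic library was far below the lowest control. Dscam4 fell by 5.69 ± 0.17 (adjusted p = 6.5e-12), in all 14 alternatives. CG13674, which starts 13582 bases from CG7213, rose by 3.98 ± 0.76 (adjusted p = 0.018; 1 of 6 fits, adjusted p up to 0.091, without control library 1), with levels of 3.3, 2.71 and 1 CPM in cic discs, against 0.14, 0.178 and 0.106 CPM in control discs. At this locus, 3 neighbouring calls thus ran in different directions. Of 28 tested adhesion and guidance receptors Dscam4 was the single call, beside 1.63% of all tested genes.

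Other called genes are described here for their values. The hairpin RNA gene CR32207 measured 25.9, 42.6 and 22.7 CPM in cic discs, against 5.68, 8.62 and 6.04 CPM in control discs. Every cic library was above every control, and it rose by 2.16 ± 0.32 (adjusted p = 0.0024), held in all 6 fits. CG15784 measured 367, 407 and 136 CPM in cic discs, against 82.5, 94.1 and 48.5 CPM in control discs, a rise of 2.01 ± 0.33 (adjusted p = 0.0041) held in all 6 fits. The clip-domain protease gene grass, of the Toll pathway, rose by 1.21 ± 0.19 (adjusted p = 0.003), CG13163, the mitochondrial initiation factor mIF3, by 1.38 ± 0.16 (adjusted p = 0.00022), and the chromatin remodelling gene Acf1 by 0.71 ± 0.12 (adjusted p = 0.0069), each in all 6 fits. Larger rises, at low levels, were those of the noncoding gene CR44316 (5.14 ± 0.67, adjusted p = 0.00071), at 5.95 ± 4.05 CPM in cic discs and 0.167 ± 0.131 CPM in control discs, and of CG18063 (4.84 ± 0.75, adjusted p = 0.003), at 7.86 ± 5.54 CPM in cic discs and 0.268 ± 0.0572 CPM in control discs (mean ± SD, n = 3 each). Lower in all 6 were CG32082 (IRSp53), which links membranes to actin, at 55.9 ± 10.8 CPM in cic discs and 106 ± 19.1 CPM in control discs, a fall of 0.92 ± 0.15 (adjusted p = 0.0048), and CG6310, a fall of 0.89 ± 0.14 (adjusted p = 0.0034). The microtubule-associated protein gene Map205 fell by 0.64 ± 0.13 (2 of 6 fits, adjusted p up to 0.094, without control library 3) and bnb by 0.73 ± 0.17 (2 of 6 fits, adjusted p up to 0.21, without control library 2).

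Further falls included pastrel (pst, 3L 7357275 to 7360263), known for its effect on resistance to a picorna-like virus, at 39.8, 35.2 and 35.5 CPM in cic discs, against 88.7, 105 and 69.3 CPM in control discs. No cic library came near the controls, and the fall of 1.25 ± 0.13 (adjusted p = 5.5e-05) was kept in all 14 alternatives, as were those of the protease gene Tequila (1.02, adjusted p = 0.0041), of CG5455 (1.39, adjusted p = 0.00012) and of Mst89B (5.16, adjusted p = 2.4e-05). Mst89B measured 0.141, 0.133 and 0.0501 CPM in cic discs, against 3.68, 6.62 and 2.07 CPM in control discs.

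Of 50 tested cuticle protein genes 1 was called, beside 1.63% of all tested genes. This was Cpr64Aa, at 32.3, 27.6 and 23.1 CPM in cic discs, against 60.8, 63.6 and 63.3 CPM in control discs, a fall of 1.18 ± 0.26 (adjusted p = 0.033; 1 of 6 fits, adjusted p up to 0.14, without cic library 2). The list median was -0.79, and 12 members lay wholly below their controls against 1 wholly above, beside 6.41% and 5.81% of all tested genes. Among 14 tested chitin-binding and chitinase genes, a list added after values were seen, the tracheal and cuticular proteins Gasp and obst-A and the chitinase Cht7 fell by 0.83 ± 0.18 (adjusted p = 0.032), 0.66 ± 0.16 (adjusted p = 0.048) and 0.74 ± 0.17 (adjusted p = 0.04), each kept in 2 of 6 fits (adjusted p up to 0.18, without control library 2, adjusted p up to 0.23, without cic library 2, and adjusted p up to 0.22, without control library 2, in that order). The sarcomere gene sls fell by 0.78 ± 0.18 (adjusted p = 0.04) and kept its call in 1 of 6 fits (adjusted p up to 0.19, without cic library 2). It was the single call among 17 muscle markers, beside 1.63% of all tested genes, and their median was -0.90. All 8 tested salivary gland markers were called lower, although in none of them did the groups separate, and each call was kept in 1 or 2 of 6 fits, with the highest adjusted p of a gene between 0.089 and 0.31. Control library 1 was no higher than the highest cic library, and control libraries 2 and 3 held the high values. Sgs3, a salivary glue gene, measured 1.32, 3.91 and 1.3 CPM in cic discs, against 0.978, 97.5 and 2564 CPM in control discs. The part of muscle, tracheal and salivary RNA in the falls of cuticle and chitin genes was not tested.

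Called genes were unevenly spread over the chromosomes. On chromosome 3, which carries cic, lay 102 of the 147 calls, or 69.4% (95% exact binomial interval 61.3 to 76.7%, which treats genes as independent), against 43.9% of the tested genes. The share of tested genes called was 3.04% on 3L and 2.2% on 3R, against 1.14% on X, 0.842% on 2L, 0.715% on 2R and 1.22% on 4. By direction, 51 of the 86 rises (59.3%) and 51 of the 61 falls (83.6%) were on chromosome 3. Of the 49 genes called in all 6 fits, 33 were on chromosome 3, and the share of all calls stayed between 63.1% and 73.8% in every alternative. In cic wts against wts discs, 42.4% of the calls were on chromosome 3, near the 43.9% of tested genes. The cic chromosome and the control FRT82B chromosome may differ at sites other than cic, and such differences cannot be told apart from the loss of Capicua in these libraries.

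Along 3R, the share of called genes was 5.65% (7 of 124) within 1 Mb of the start of cic, 0 of 126 between 1 and 2 Mb, 2.7% from 2 to 5 Mb, 2.25% from 5 to 10 Mb and 1.51% beyond. The 7 near cic were bnl, CG31459, CG4662, CG4562, CG4367, CG4362 and AnxB9. CG4367 and CG4362 adjoin cic on the map, in that order. CG4362 (3R 20306216 to 20307537) measured 21.8, 32.6 and 14.6 CPM in cic discs, against 0.699, 0.622 and 4.4 CPM in control discs, a rise of 3.61 ± 0.58 (adjusted p = 0.0039), and CG4367 (3R 20303955 to 20304977) measured 14.4, 21.2 and 8.27 CPM in cic discs, against 0.0932, 0.0888 and 1.8 CPM in control discs, a rise of 4.50 ± 0.84 (adjusted p = 0.011; 5 of 6 fits, adjusted p up to 0.073, without cic library 2). In both, control library 3 was the highest control and still lay below every cic library. CG4662 (MICU3), of the mitochondrial calcium uptake family, rose by 1.01 ± 0.15 (adjusted p = 0.0025), while CG4562 (Mrp5), an ABC transporter gene, fell by 0.97 ± 0.22 (adjusted p = 0.036; 1 of 6 fits, adjusted p up to 0.14, without control library 1).

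Calls also lay close to each other. Among 146 called genes with coordinates, 49 (33.6%) had another called gene starting within 20 kb, against 6.6% of the other tested genes. Of the 26 pairs of successive called genes within that distance, 20 moved in the same direction, including Cul2 with CR43144, GstE1 with GstE6, Ugt86Di with Ugt86Da, and Dronc with dpr6. Gene families and overlapping genes are among them, and their reads may be shared.

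**Figure D4:**
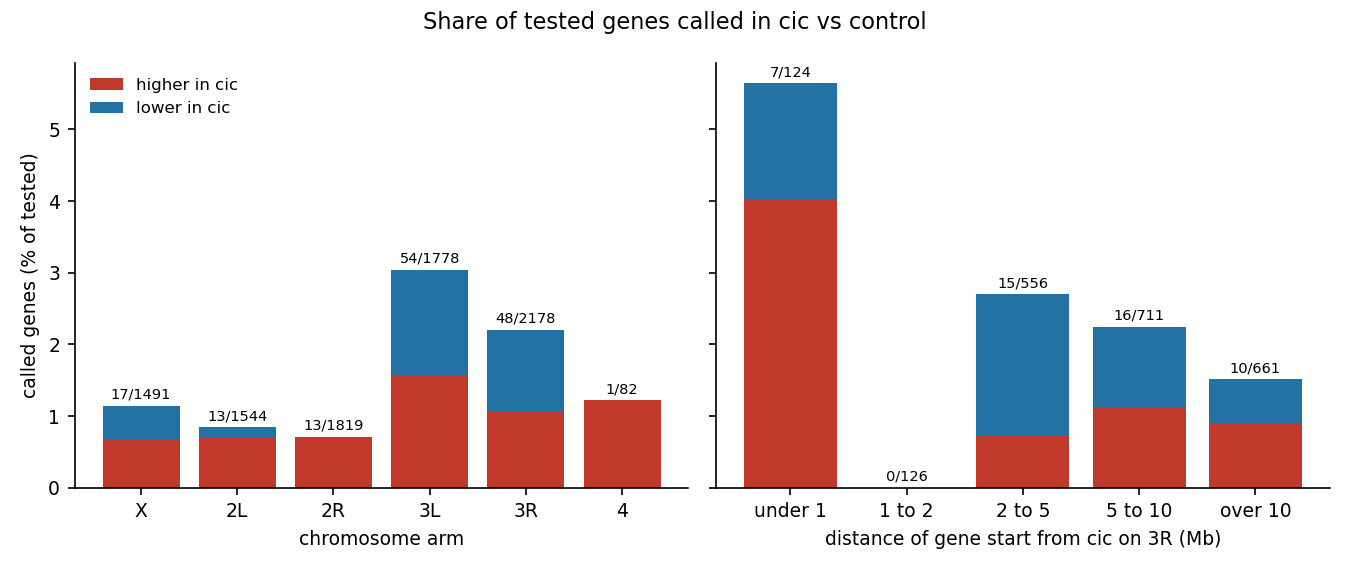
Percentage of tested genes called in cic against control discs, by chromosome arm (left) and, on 3R, by distance of the gene start from the start of cic in Mb (right). Red parts are calls higher and blue parts calls lower in cic discs, and the numbers over the bars are called and tested genes; 3L and 3R stand above the other arms.

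The loss of Capicua was also measured in 6 other day 5 libraries, where FRT82B carried cicQ474X with wts149 (cic wts, 3 libraries) or wts149 alone (wts, 3 libraries) opposite the same Minute chromosome. There 262 genes were called (2.91% of those tested). The change with cic lost differed between the backgrounds by an interaction test for 175 genes (1.94%). The chromosomes of these groups may differ at sites other than cic and wts, which the test cannot tell apart from an effect of cic that depends on wts. Of the 147 genes called in cic against control discs, 61 had an interaction call and 12 were called in cic wts against wts, which is 8.16% of the 147 and 4.58% of the 262. In direction, 73 of the 147 (49.7%) had the same sign in the wts background, as did 48.1% of all tested genes. The median size of their log2 fold change was 0.91 in cic against control and 0.16 in cic wts against wts, where that of all tested genes was 0.12 and 0.13. The 147 were chosen by the cic and control libraries, which the interaction test uses again. Their 61 interaction calls and the larger of their medians follow in part from that choice.

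Called in both backgrounds and in the same direction were 8 genes. The rise of aos was larger with wts lost, at 2.00 (adjusted p = 3.4e-08), and the difference between the backgrounds was 1.10 (adjusted p = 0.0016); the means were 155 ± 9.47 CPM in cic wts discs and 38.8 ± 1.88 CPM in wts discs (SD, n = 3 each). For pnt the rise was 1.79 (adjusted p = 7.4e-08) and the difference 1.33 (adjusted p = 0.00014), with 137 ± 15.5 CPM in cic wts discs and 39.5 ± 2.33 CPM in wts discs. Sty, which did not pass here, rose there by 1.16 (adjusted p = 0.00016), a difference of 0.92 (adjusted p = 0.021). CG32354, known by its annotation number, measured 31.6, 24.2 and 49 CPM in cic discs, against 14.6, 9.02 and 14.6 CPM in control discs; its rise of 1.46 ± 0.27 (adjusted p = 0.01; 5 of 6 fits, adjusted p up to 0.064, without control library 2) stood beside 1.31 in the wts background, without an interaction call (adjusted p = 0.91). CG42313 (side-II), an immunoglobulin-type surface protein gene, rose by 3.30 ± 0.50 (adjusted p = 0.0025) and by 3.97 (adjusted p = 0.02), the second from levels of 0.381 ± 0.117 CPM in cic wts discs and 0.0173 ± 0.0299 CPM in wts discs, and CG2064 (Rdh1) by 0.91 ± 0.13 (adjusted p = 0.0016) and 0.76 (adjusted p = 0.0045). The dynein assembly gene CG17669 (Dnaaf3) also rose in both (here 1.30 ± 0.28, 2 of 6 fits, adjusted p up to 0.18, without cic library 2). Its means were 8.76 ± 0.429 CPM in cic wts discs and 0.0174 ± 0.0301 CPM in wts discs, against 11.7 ± 4.23 CPM in control discs. The second rise thus started from a wts group near 0, and the cic wts mean lay below the control mean. Ncc69, a cation-chloride cotransporter gene, fell in both (here -0.36 ± 0.08, 1 of 6 fits, adjusted p up to 0.15, without cic library 2), as did Cpr64Aa.

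Called in opposite directions were AnxB9 and CG4562, lower in cic against control and higher in cic wts against wts, and CG3168 and wus, higher in the first comparison and lower in the second. In cic against control discs AnxB9, a calcium-binding annexin, was at -0.36 ± 0.08 (1 of 6 fits, adjusted p up to 0.18, without control library 2), CG3168 at 0.48 ± 0.10 (2 of 6 fits, adjusted p up to 0.14, without control library 2) and wus at 0.34 ± 0.08 (1 of 6 fits, adjusted p up to 0.17, without cic library 2). For CG4562 the means were 16.1 ± 1.81 CPM in cic wts discs and 1.48 ± 0.181 CPM in wts discs, a rise of 3.43 (adjusted p = 7.3e-07), and the difference between the backgrounds was 4.40 (adjusted p = 1.9e-06). Its means were 8.16 ± 3.47 CPM in cic discs and 15.9 ± 2.15 CPM in control discs. Cic wts discs thus stood near control discs (0.015 ± 0.215, adjusted p = 0.97), and wts discs were the lowest.

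Many of the strongest changes in cic discs were not called in cic wts discs, which carry the same allele. Dscam4 measured 69.4 ± 6.47 CPM in cic wts discs and 69.7 ± 7.05 CPM in wts discs, without a call (adjusted p = 0.99) and with an interaction of 5.68 (adjusted p = 1.6e-10). Cul2 measured 193 ± 18.8 CPM in cic wts discs and 186 ± 5.77 CPM in wts discs, CR43144 8.49 ± 0.265 CPM in cic wts discs and 10 ± 0.538 CPM in wts discs and Snap25 4.3 ± 0.616 CPM in cic wts discs and 4.87 ± 1.17 CPM in wts discs, with interactions of -2.02, -3.80 and -3.35 (adjusted p = 0.00013, adjusted p = 1.1e-06 and adjusted p = 0.00019). Bnl measured 7.63 ± 1.81 CPM in cic wts discs and 8.95 ± 0.588 CPM in wts discs at day 5, with an interaction of -1.61 (adjusted p = 0.035). At day 9, in libraries outside this comparison, it stood at 45.3 ± 12.4 CPM in cic wts discs and 12.7 ± 0.519 CPM in wts discs. Fer1HCH stood at 257 ± 4.99 CPM in cic wts discs and 275 ± 20.5 CPM in wts discs, both means above every cic and control library, and its interaction was -0.91 (adjusted p = 0.00055). For 88 of the 147 genes (59.9%) the 3 cic libraries lay outside the range of all 15 others, wts and day 9 groups included, 54 above and 34 below, against 375 of all 9004 tested genes (4.16%). The 147 were chosen for a difference between the cic libraries and the control libraries, which are among those 15. A share above that of all tested genes therefore follows in part from the choice.

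**Figure D5:**
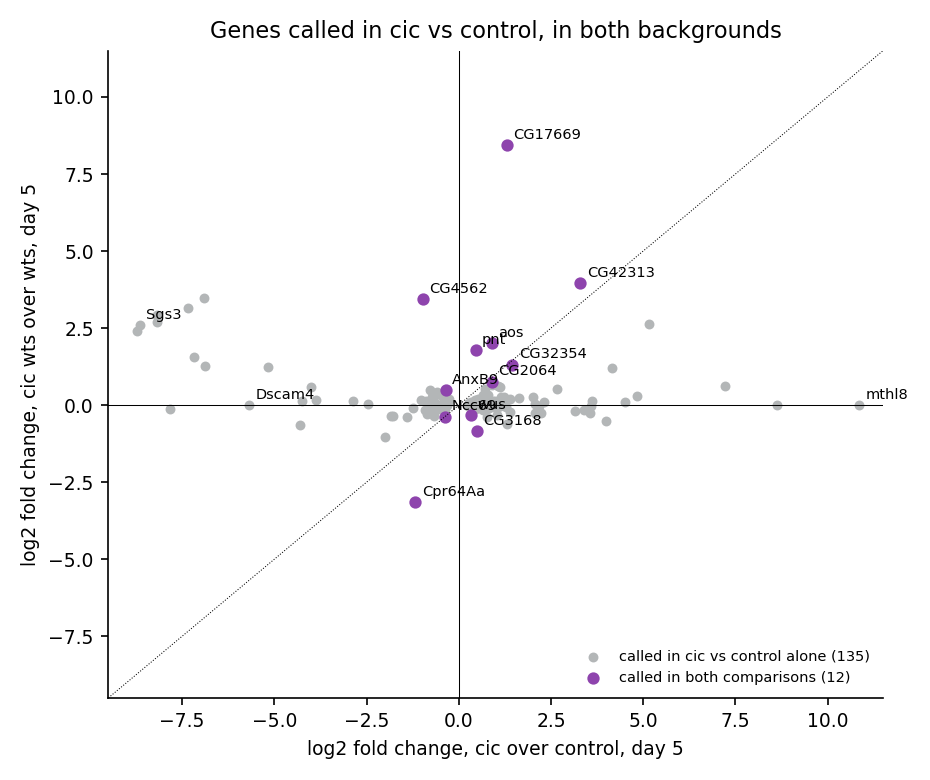
Log2 fold changes of the 147 genes called in cic against control discs, in that comparison (x axis) and in cic wts against wts discs (y axis), at day 5; the dotted line marks equal values. The 12 purple points were called in both comparisons, aos, pnt, CG32354, CG42313 and CG17669 among them in the upper right, while most grey points lie near 0 on the y axis.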

How the data were processed

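For 18 libraries of discs dissected by hand, the authors deposited raw counts of reads per gene in a single table. Libraries were made with a TruSeq mRNA kit, per the labels. Bowtie2, TopHat2, HTSeq and DESeq2, and the build dm6, are named per the submitters' processing notes; the sources used here do not give versions, roles or strandedness. Of the 17373 gene names, 12766 matched a RefSeq table of release 6 by symbol and 4387 by synonym, and 220 had no match there; coordinates are from that table. Genes kept by filterByExpr of edgeR 4.0.16 (R 4.3.3) were fitted by quasi-likelihood after TMM scaling, in 1 model of 18 libraries with a coefficient for each of 6 groups. The p-values of the F test were adjusted over the 9004 genes kept, by the Benjamini-Hochberg method. The common biological coefficient of variation was 0.185. Standard errors are the fold change over the root of F, and CPM used TMM-scaled totals. No replicates held identical values. The procedure was tested on simulated counts.

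Genes and lists were chosen with earlier results of these data known. The rule for naming genes took cic and wts, the 15 largest rises and falls without overlap and with at least 5 CPM, genes called in all 6 fits lacking a library, called list members with up to 4 others, the Ras/EGFR and Capicua target list, calls within 1000000 bases of cic and calls at 0 counts in a group; of these a selection is named. Genes outside the rule (CG13674, wus, CG3168, Ncc69, CG17669, asp, pbl, Map205 and bnb) and the lists for iron-sulfur clusters, DNA repair, cytochrome P450, UDP-glycosyltransferases, chitin and disc identity were chosen after their values were seen. Alternatives were other scalings, keeping all genes with low counts, the Wald test of DESeq2 1.42.0, a replicate block, fewer libraries in the fit, the roX level as a covariate and leaving out each library. A promoter description planned beforehand was not made.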

Additional observations from a re-analysis of the deposited data

Results flagged for a closer look

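By the test of the interaction, the change with cic lost differed between the backgrounds for 49 of the genes named here or followed with them. Only genes with such a call are listed, which 175 of all tested genes (1.94%) had. Most were chosen by the cic and control libraries, which the test uses again, so their calls follow in part from that choice. Chromosome differences at sites other than cic and wts cannot be told apart from these effects. Values are the log2 effect in cic wts against wts minus that in cic against control, with its adjusted p. Those of CG7213, CG17669 and CG32640, with groups at or near 0 counts, depend on a prior count. Low means also underlie those of CG18586 (0.144 CPM in cic and 0.228 CPM in wts discs) and CG45603 (0.188 CPM in control and 0.244 CPM in wts discs). For Mst89B the cic mean was 0.108 CPM. In 28 of the 49 the call was kept in all 12 fits that lacked a day 5 library, and in 24 of these also in the 7 other alternatives.

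Among genes that fell in cic discs, the difference was 5.68 for Dscam4 (adjusted p = 1.6e-10), 7.69 for CG7213 (adjusted p = 2.3e-05), 6.38 for Mst89B (adjusted p = 2.3e-05), 4.61 for CG18586 (adjusted p = 0.0071) and 4.40 for CG32640 (adjusted p = 0.014). It was 4.40 for CG4562 (adjusted p = 1.9e-06), 1.16 for pst (adjusted p = 0.0031), 1.18 for Tequila (adjusted p = 0.015), 1.01 for CG5455 (adjusted p = 0.021), 0.83 for AnxB9 (adjusted p = 0.0008) and 1.28 for sls (adjusted p = 0.015). Smaller differences were 0.61 for Sdhaf3 (adjusted p = 0.048), 0.46 for pbl (adjusted p = 0.017), 0.43 for asp (adjusted p = 0.026), 0.40 for polybromo (adjusted p = 0.029) and 0.31 for CycB3 (adjusted p = 0.043). Cpr64Aa fell more with wts lost (-1.97, adjusted p = 0.014).

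Among genes that rose in cic discs, the effect was larger with wts lost for aos (1.10, adjusted p = 0.0016), pnt (1.33, adjusted p = 0.00014) and CG17669 (7.14, adjusted p = 0.00014). It was smaller or of the other sign by -3.80 for CR43144 (adjusted p = 1.1e-06), -2.02 for Cul2 (adjusted p = 0.00013), -3.35 for Snap25 (adjusted p = 0.00019), -3.63 for CG14695 (adjusted p = 0.013), -3.57 for CG45603 (adjusted p = 0.046) and -3.47 for CG4362 (adjusted p = 0.047). The values were -2.32 for Cyp6d2 (adjusted p = 0.014), -2.21 for GstE6 (adjusted p = 0.046), -2.18 for CR32207 (adjusted p = 0.019), -1.61 for bnl (adjusted p = 0.035), -1.42 for RhoGAP68F (adjusted p = 0.0037) and -1.34 for CG18547 (adjusted p = 0.018). They were -1.34 for CG3168 (adjusted p = 0.00013), -1.18 for CG13163 (adjusted p = 0.014), -1.18 for grass (adjusted p = 0.035), -1.14 for sick (adjusted p = 0.015) and -1.10 for CG4662 (adjusted p = 0.015). For the remaining rises they were -0.91 for Fer1HCH (adjusted p = 0.00055), -0.87 for unc-13 (adjusted p = 0.035), -0.81 for Dronc (adjusted p = 0.017), -0.67 for CG7970 (adjusted p = 0.0078), -0.67 for wus (adjusted p = 0.005), -0.61 for CG10638 (adjusted p = 0.041) and -0.56 for Gcn5 (adjusted p = 0.021).

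For genes without a call in cic against control discs the difference was 0.92 for sty (adjusted p = 0.021), -0.52 for vn (adjusted p = 0.0078), -1.38 for Doc2 (adjusted p = 0.0076), -1.44 for hid (adjusted p = 0.013) and 0.72 for pyr (adjusted p = 0.035).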

How the results depend on the processing

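The count of 147 genes varied with the analysis. It was 19 with only the 6 compared libraries in the fit, 71 with the 12 day 5 libraries, 92 once roX level entered as a covariate and 248 with DESeq2, and it ranged from 61 to 149 without any 1 of the 6 libraries. Of the 147, 145 were also called by DESeq2, 81 with the roX covariate, 68 with the 12 day 5 libraries and 17 with the 6 alone, where aos missed the threshold. RLE and total-count scaling each kept 143, and no called gene with a value changed sign in the 14 alternatives, of which the fits of 6 and of 12 libraries tested 145 of the 147. Called in all 14 alternatives were 15 genes: CG14695, CG18586, CG45603, CG5455, CG7970, CR43144, Cul2, Dscam4, Fer1HCH, Mst89B, Snap25, Tequila, dpr6, pst and unc-13. The 175 interaction calls became 78 with the 12 day 5 libraries and 395 with DESeq2, and ranged from 92 to 257 without a library (92 without wts library 1). The 262 calls of cic wts against wts became 157 and 487, and ranged from 105 to 246 (105 without wts library 1). The cause of these shifts was not tested. The share of calls on chromosome 3 lay between 63.1% and 73.8%. Those alternatives for the last 2 results were added after the data were seen. Same-numbered cic and control libraries deviated from their group means with correlations of 0.16, 0.0322 and 0.4, so the numbers were not taken to pair the samples; a replicate block gave 108, 165 and 260 calls for the 3 comparisons. At 18063124 to 22263073 counts a library and 3 pools a group, small changes of low-count genes were not detectable.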
